A study of Homo sapiens with 6 samples.

Results

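Messenger RNAs of 40 genes for mitotic cyclins, kinases, and proteins of the spindle and the cleavage machinery were examined in U87 cells, a human glioblastoma line, by RNA sequencing. The genes were taken as a named list, which was chosen with earlier results of these data known. They were matched by symbol to the 60612 genes of the count table, and each of the 40 symbols matched 1 gene. The NC group (3 libraries) held U87 cells that received a scramble shRNA, and the shPRMT6 group (3 libraries) held U87 cells that received an shRNA against PRMT6, an arginine methyltransferase that modifies histone H3. Both groups shared the parental line, lentiviral delivery with polybrene, and growth in DMEM with fetal bovine serum. The study's supplementary methods describe puromycin selection of infected glioma cells, without naming these samples. The shRNA sequence used in each library was not given in the sources used here, and all cells came from a single established line, so effects of the shRNA other than those on PRMT6 and effects particular to U87 cannot be told apart from those of PRMT6 loss. The comparison asked how the mitotic genes differed between PRMT6-knockdown and control cells.

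Entry into mitosis depends on CDK1 bound to a B-type cyclin, which CDC25 phosphatases activate by removing inhibitory phosphates. Aurora and Polo-like kinases then drive centrosome maturation, spindle assembly and chromosome attachment, and centralspindlin and anillin help to build the cleavage furrow. Transcripts of most of these genes peak in G2 and mitosis, through the MuvB complex with B-MYB and FOXM1 at CHR elements and through NF-Y at CCAAT boxes. In bulk RNA, a smaller share of cells in G2 and mitosis and less of these RNAs per cell cannot be told apart.

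The promoters of the 5 genes with the smallest p that had an entry in the RefSeq promoter table are printed. A small p reflects the size of a difference as well as its precision. Each run is the 150 bases just before the transcription start of GRCh38.p14, 5′ to 3′ on the strand of the gene. Capitals mark CCAAT (the NF-Y box, or ATTGG on the other strand) and TTTGAA (the CHR element, or TTCAAA on the other strand). The windows are chr15:41332731-41332880 on the plus strand for NUSAP1, chr15:59104996-59105145 on the plus strand for CCNB2, chr9:137070558-137070707 on the minus strand for SAPCD2, chr16:23678739-23678888 on the plus strand for PLK1, and chr4:121823884-121824033 on the minus strand for CCNA2.
NUSAP1: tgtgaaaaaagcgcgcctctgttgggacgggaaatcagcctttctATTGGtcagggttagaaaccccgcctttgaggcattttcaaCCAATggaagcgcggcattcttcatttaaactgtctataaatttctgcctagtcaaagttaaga
CCNB2: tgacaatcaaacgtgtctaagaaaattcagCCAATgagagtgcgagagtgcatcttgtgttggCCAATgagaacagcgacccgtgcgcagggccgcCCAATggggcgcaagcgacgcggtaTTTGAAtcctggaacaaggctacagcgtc
SAPCD2: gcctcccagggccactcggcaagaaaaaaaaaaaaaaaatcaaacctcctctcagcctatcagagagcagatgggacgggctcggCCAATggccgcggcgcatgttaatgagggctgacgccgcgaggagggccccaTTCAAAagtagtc
PLK1: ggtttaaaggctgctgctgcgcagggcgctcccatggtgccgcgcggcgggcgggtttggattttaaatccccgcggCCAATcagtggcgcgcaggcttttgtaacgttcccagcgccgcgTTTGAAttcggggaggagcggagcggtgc
CCNA2: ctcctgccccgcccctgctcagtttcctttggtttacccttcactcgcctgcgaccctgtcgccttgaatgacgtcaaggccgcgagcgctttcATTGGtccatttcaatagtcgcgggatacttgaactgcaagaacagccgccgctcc

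CCNB2 held 3 CCAAT boxes in this window, NUSAP1 held 2, and SAPCD2, PLK1 and CCNA2 held 1 each. The CHR element of CCNB2 and that of PLK1 both began 29 bases before the start, and that of SAPCD2 began 13 bases before it. No exact TTTGAA was found in the printed windows of NUSAP1 and CCNA2.

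The libraries held 56388161 to 75887696 counts in NC and 61805330 to 67630740 in shPRMT6, and the lowest count of any of the 40 genes in any library was 218. PRMT6 itself had 9.34, 7.97 and 7.19 CPM (counts scaled to library size with TMM factors) in the 3 NC libraries and 3.57, 4.58 and 5.24 in the 3 shPRMT6 libraries. Its groups did not overlap, with a log2 fold change of shPRMT6 over NC of -0.87 ± 0.187 (SE; adjusted p = 0.0225 in the quasi-likelihood test of edgeR, after Benjamini-Hochberg adjustment). This call was lost without NC replicate 1 (adjusted p = 0.0613), without shPRMT6 replicate 1 (0.0588) and without shPRMT6 replicate 2 (0.0713). CDC20, the activator of the anaphase-promoting complex on which the study centred, fell by 1.30 on the log2 scale (adjusted p = 0.00058, same test). Of the U87 markers, VIM was at 7988 CPM in NC and 7425 in shPRMT6, CD44 at 568 and 524, and NES at 40.85 and 45.4. The glial marker OLIG2 was low, at 2.6 CPM in NC and 2.8 in shPRMT6. GFAP and SOX2, also glial markers, were below 1 CPM in both groups, and S100B had no counts. Of the 8 of 9 U87 markers tested, FN1, which encodes fibronectin, fell from 2917 to 1768 CPM (log2 fold change -0.72, adjusted p = 0.00246, edgeR QL test), CHI3L1 rose from 3.51 to 10.8 CPM (log2 fold change 1.62, adjusted p = 0.00294), and the other 6 did not pass. Of 8 markers of blood, endothelial, epithelial and neural cells, 5 passed the filter on low counts, and none of these 5 passed the test in either direction (adjusted p from 0.0544 for PECAM1 upward).

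The 40 genes took 0.386% to 0.412% of all counts in the NC libraries and 0.235% to 0.241% in the shPRMT6 libraries. Their summed level was 3891, 4109 and 3930 CPM in NC and 2385, 2361 and 2410 CPM in shPRMT6. Each shPRMT6 library thus lay below each NC library in this sum. All 40 genes passed the filter on low counts, 35 fell at an adjusted p under 0.05 and 0 rose, in the edgeR quasi-likelihood (QL) test, with Benjamini-Hochberg adjustment over 18106 genes. Among all genes tested, 9.06% fell and 9.51% rose by the same call. The list was chosen with earlier results of these data known, so this and later shares of all genes are a description only. The median log2 fold change of the 40 genes was -0.79, which is 57.7% of the NC level, and that of all genes tested was -0.01. Fold changes ran from -1.80 for GAS2L3 to -0.15 for CDC25B, with 8 genes below -1, 24 between -1 and -0.6, and 8 above -0.6. Under the threshold of the study's methods (log2 fold change beyond 1 with an unadjusted p under 0.05), 8 of the 40 genes were lower, compared with 2.63% of all genes tested. In 37 genes every shPRMT6 library lay below every NC library, which was the case for 19.9% of all genes tested. The groups overlapped in CDC25B, ASPM and KNSTRN.

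**Figure D1:**
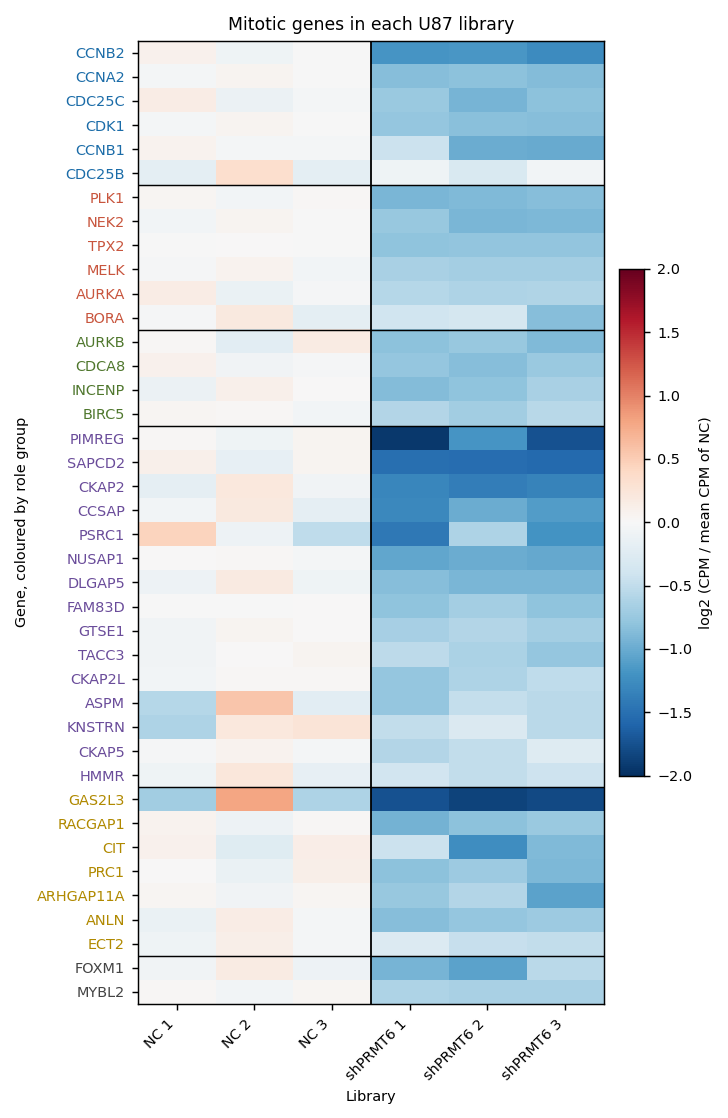
Level of each of the 40 genes (rows, coloured by role group) in each library (columns), as log2 of its CPM over the mean CPM of the 3 NC libraries. The 3 shPRMT6 columns are blue in nearly every row, while NC replicate 2 is high for GAS2L3, ASPM and CDC25B.

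Among the cyclins, CDK1 and the CDC25 phosphatases, 5 of 6 genes fell and the median log2 fold change was -0.82. CCNB2, which encodes cyclin B2, had 64.5, 57.1 and 60.4 CPM in NC and 26.7, 27.1 and 25.4 CPM in shPRMT6. The groups were far apart relative to their spread, with a log2 fold change of -1.20 ± 0.0765 (SE; adjusted p = 0.00051, edgeR QL test). CCNB1, which encodes cyclin B1, the partner of CDK1 at mitotic entry, had 139.8, 129 and 129 CPM in NC and 98.5, 66.9 and 66.2 in shPRMT6. Its shPRMT6 replicate 1 stood above the other shPRMT6 libraries, and the log2 fold change of -0.78 ± 0.161 (SE) had an adjusted p of 0.0201 (edgeR QL test). This call was lost without NC replicate 1 (adjusted p = 0.0598), NC replicate 3 (0.0593), shPRMT6 replicate 2 (0.0715) or shPRMT6 replicate 3 (0.0666).

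CCNA2, the gene of cyclin A2, which works in S phase and early mitosis, had 116, 123.5 and 118 CPM in NC and 66.0, 67.5 and 65.1 in shPRMT6, and fell by 0.85 on the log2 scale. EXOSC9 lies opposite 9.08% of the exonic bases of CCNA2, and its counts came to 34.2% of those of CCNA2. CDK1, the kinase that drives entry into mitosis, had 101, 107 and 103 CPM in NC and 60.6, 58.4 and 57.6 in shPRMT6, and fell by 0.82. CDC25C, a phosphatase that completes the activation of CDK1, fell from 11.4 ± 1.08 to 6.39 ± 0.403 CPM (mean ± SD, n = 3 libraries each). About 8.78% of its exonic bases lie opposite FAM53C, whose counts came to 508% of those of CDC25C, and the use of strand in counting was not stated. CDC25B, the phosphatase that starts CDK1 activation in G2, had 33.9, 48.8 and 33.7 CPM in NC and 36.4, 31.4 and 37.4 in shPRMT6. These ranges overlapped, the log2 fold change was -0.15 ± 0.165 (SE), and its adjusted p was 0.597 (edgeR QL test). Without NC replicate 2, the highest library, its log2 fold change was 0.05.

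Of the mitotic kinases and their activators, 5 of 6 fell, with a median log2 fold change of -0.73. TPX2, which targets and activates Aurora A on spindle microtubules, was the most abundant of the 40 genes per transcript length (116 FPKM in NC). It had 497, 502 and 492 CPM in NC and 285, 287 and 287 in shPRMT6. The spread within a group was 0.96% of the mean in NC and 0.47% in shPRMT6, with a log2 fold change of -0.79 ± 0.0446 (SE; adjusted p = 0.000357, edgeR QL test).

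PLK1, the Polo-like kinase of centrosomes, kinetochores and the midzone, had 104, 97.8 and 102.5 CPM in NC and 53.5, 55.1 and 55.9 in shPRMT6, and fell by 0.89 on the log2 scale. NEK2, which acts in centrosome separation, fell from 37.3 ± 1.44 to 20.6 ± 1.28 CPM (mean ± SD, n = 3). MELK, a leucine zipper kinase, fell by 0.67 on the log2 scale, from 105 ± 4.55 to 65.9 ± 0.937 CPM. AURKA, the Aurora A kinase of spindle poles, fell by 0.60, from 124 ± 11.9 to 81.8 ± 1.38 CPM. BORA, the cofactor through which Aurora A activates PLK1, had 17.9, 20.9 and 15.9 CPM in NC and 13.8, 14.3 and 10.1 in shPRMT6. Its groups did not overlap, but the log2 fold change of -0.51 ± 0.171 (SE) did not pass (adjusted p = 0.0859, edgeR QL test). About 37.0% of the exonic bases of BORA lie opposite DIS3, whose counts came to 382% of those of BORA, with the use of strand not stated.

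**Figure D2:**
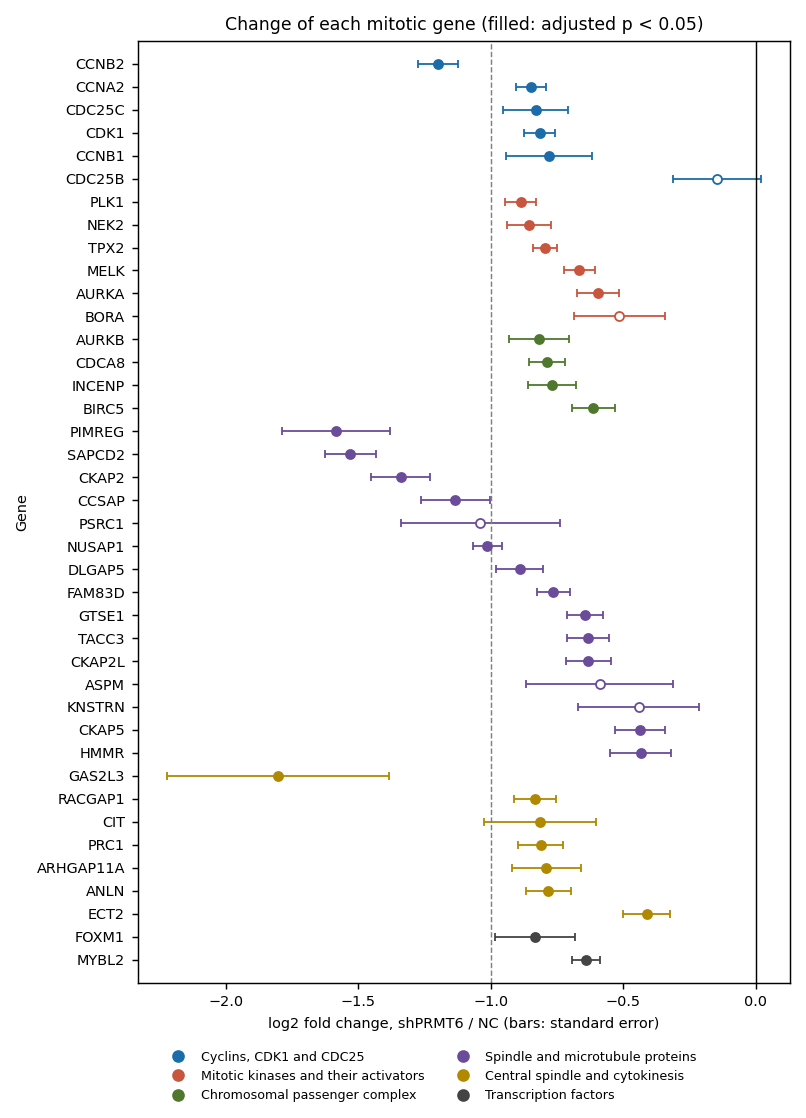
Log2 fold change of shPRMT6 over NC for each gene (points) with its standard error (bars), coloured by role group; filled points passed an adjusted p of 0.05 and the dashed line marks -1. The 5 open points are CDC25B, BORA, PSRC1, ASPM and KNSTRN, and all 40 points lie below 0.

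All 4 subunits of the chromosomal passenger complex, which corrects faulty kinetochore attachments and later marks the division plane, fell, with a median log2 fold change of -0.78. CDCA8, which encodes the targeting subunit borealin, had 99.8, 90.5 and 93.2 CPM in NC and 55.2, 52.6 and 56.4 in shPRMT6. Its log2 fold change was -0.79 ± 0.0668 (SE; adjusted p = 0.00118, edgeR QL test). AURKB, the kinase of the complex, fell by 0.82 on the log2 scale, from 37.6 ± 4.96 to 21.3 ± 0.867 CPM (mean ± SD, n = 3). INCENP, the scaffold, fell by 0.77, from 86.0 ± 6.34 to 50.4 ± 4.2 CPM. BIRC5, which encodes survivin, fell by 0.61, from 30.0 ± 1.09 to 19.6 ± 1.05 CPM.

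Among 15 spindle and microtubule proteins, 12 fell and the median log2 fold change was -0.76. This group held 6 of the 8 genes that passed the threshold of the methods. NUSAP1, a microtubule-bundling protein around chromosomes, had 108, 109 and 105 CPM in NC and 52.4, 54.2 and 53.0 in shPRMT6. Its log2 fold change was -1.01 ± 0.0552 (SE; adjusted p = 0.000322, edgeR QL test), the smallest p of the 40 genes. On the same strand 62.2% of its exonic bases are shared with AC087721.2, whose counts were 0.674% of those of NUSAP1. How reads over shared bases were counted was not examined, so this share does not measure the effect of the overlap. CKAP5, the microtubule polymerase chTOG and the group's most abundant gene by mean FPKM over both groups, had 292, 311 and 288 CPM in NC and 197.5, 211 and 249 in shPRMT6. Its fitted log2 fold change stood at -0.44 ± 0.0948 (SE; adjusted p = 0.0231, edgeR QL test), and the adjusted p was 0.0534 to 0.0849 when any library other than shPRMT6 replicate 3 was left out.

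The largest falls of the spindle group were those of PIMREG, SAPCD2, CKAP2 and CCSAP. PIMREG, a mitotic regulator that binds PICALM, had 17.2, 16.0 and 17.6 CPM in NC and 4.45, 7.46 and 5.06 in shPRMT6, a log2 fold change of -1.58. PITPNM3 lies opposite 7.30% of its exonic bases and had 156 counts in NC and 648 in shPRMT6. SAPCD2, a regulator of spindle orientation, had 37.1, 31.0 and 36.1 CPM in NC and 12.2, 12.0 and 11.9 in shPRMT6, a log2 fold change of -1.53. CKAP2, a microtubule-associated protein of the spindle, had 60.2, 78.8 and 65.1 CPM in NC and 27.7, 26.0 and 27.0 in shPRMT6, a log2 fold change of -1.34. CCSAP, a protein of centrioles and the spindle, had 37.8, 44.9 and 34.6 CPM in NC and 15.9, 19.6 and 17.95 in shPRMT6, a log2 fold change of -1.13. The groups of these 4 genes did not overlap, and each gene passed the test.

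DLGAP5, the kinetochore fibre protein HURP, fell by 0.89 on the log2 scale, and FAM83D, which recruits casein kinase 1 to the spindle, fell by 0.76. FAM83D was the most even of the group in NC, with 92.3, 92.4 and 93.0 CPM, and had 52.7, 57.5 and 53.3 in shPRMT6. GTSE1 fell by 0.65, TACC3, a clathrin and chTOG partner on kinetochore fibres, by 0.63, and CKAP2L, the paralogue of CKAP2, by 0.63. HMMR, a spindle assembly factor, had 52.1, 64.9 and 49.2 CPM in NC and 42.4, 39.3 and 41.4 in shPRMT6. Its adjusted p of 0.0447 (edgeR QL test) rose to 0.0514 to 0.138 when any library other than NC replicate 2 was left out.

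For 3 spindle genes the test was not passed. ASPM, a spindle pole protein whose loss causes primary microcephaly, had 71.9, 156 and 91.8 CPM in NC and 62.5, 76.7 and 73.5 in shPRMT6. NC replicate 2 stood well above the rest, and NC replicate 1 lay within the shPRMT6 range. Its fitted log2 fold change stood at -0.59 ± 0.276 (SE; adjusted p = 0.194, edgeR QL test). Without NC replicate 2 it was -0.21 (adjusted p = 0.374). KNSTRN, a kinetochore and spindle protein, had 34.9, 61.6 and 63.9 CPM in NC and 37.9, 43.6 and 36.6 in shPRMT6. Here NC replicate 1 was the lowest of all 6 libraries, and without it the log2 fold change went from -0.44 to -0.68 and the adjusted p from 0.234 to 0.0133 (edgeR QL test). PSRC1, a microtubule-binding protein, had 29.7, 20.4 and 15.4 CPM in NC and 8.11, 14.2 and 9.55 in shPRMT6. Its groups did not overlap, and the log2 fold change of -1.04 ± 0.3 (SE) had an adjusted p of 0.0574 (edgeR QL test).

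**Figure D3:**
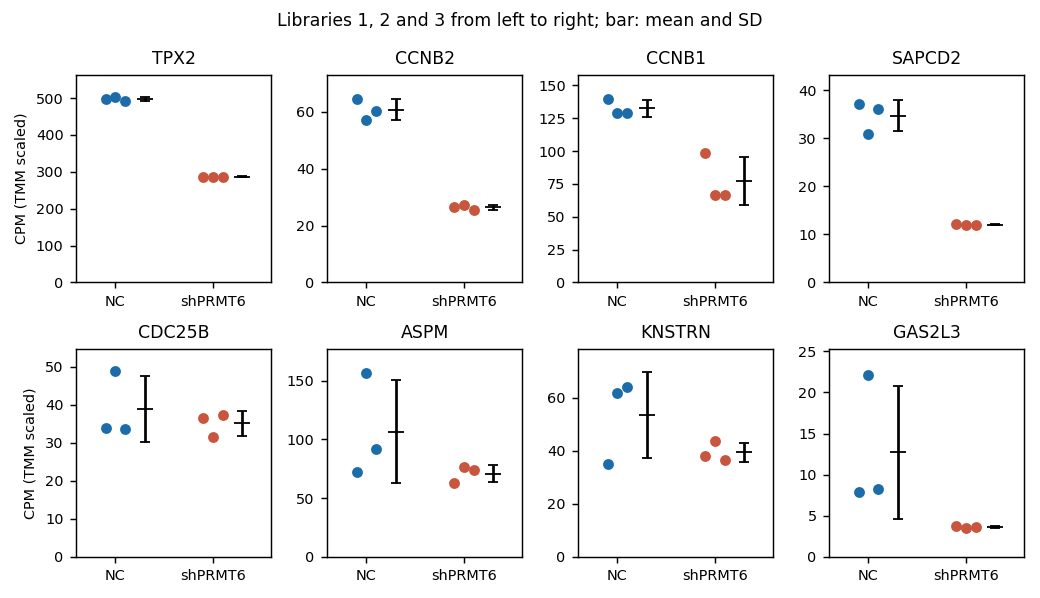
CPM of 8 genes in each library (points; NC blue, shPRMT6 red) with the mean and SD of 3 libraries, on axes that start at 0. TPX2, CCNB2 and SAPCD2 show tight, separate groups, whereas CDC25B, ASPM and KNSTRN overlap and GAS2L3 is raised in NC replicate 2.

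All 7 genes of the central spindle and cytokinesis fell, with a median log2 fold change of -0.81. RACGAP1, the centralspindlin subunit, had 151.6, 134 and 147 CPM in NC and 74.9, 81.5 and 86.6 in shPRMT6, with a log2 fold change of -0.83 ± 0.0807 (SE; adjusted p = 0.0017, edgeR QL test). ANLN, which encodes anillin, the scaffold of the contractile ring, had 214, 259 and 228 CPM in NC and 129, 137 and 141 in shPRMT6. Its log2 fold change was -0.78 ± 0.0844 (SE; adjusted p = 0.00227, edgeR QL test). PRC1, which bundles antiparallel microtubules, fell by 0.81. On the same strand 57.6% of its exonic bases are shared with AC068831.7, whose counts came to 22.0% of those of PRC1. Here too, the counting of reads over shared bases was not examined. ARHGAP11A fell by 0.79, and 19.0% of its 75-base stretches also occur elsewhere, ARHGAP11B included.

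GAS2L3, a linker of actin and microtubules, had 7.85, 22.1 and 8.28 CPM in NC and 3.80, 3.54 and 3.63 in shPRMT6. The size of its log2 fold change, -1.80 ± 0.419 (SE; adjusted p = 0.0295, edgeR QL test), rested in part on the high NC replicate 2, without which it was -1.14 (adjusted p = 0.00659). Its call was lost when any shPRMT6 library was left out (adjusted p from 0.0873 to 0.0962). CIT, the citron kinase of the midbody, had 102, 81.1 and 105 CPM in NC and 71.2, 40.8 and 52.0 in shPRMT6. Its adjusted p of 0.0415 (edgeR QL test) went to 0.0903 to 0.122 without NC replicate 1, NC replicate 3, shPRMT6 replicate 2 or shPRMT6 replicate 3. ECT2, an exchange factor that acts at the cleavage furrow, had 103, 119.8 and 107 CPM in NC and 90.5, 79.4 and 77.8 in shPRMT6. Its log2 fold change of -0.41 was the smallest of the called genes, and its call was lost without NC replicate 3, shPRMT6 replicate 2 or shPRMT6 replicate 3 (adjusted p from 0.0622 to 0.0912).

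Both transcription factors fell. MYBL2, which encodes B-MYB, the partner of the MuvB complex, had 199.9, 191 and 202 CPM in NC and 129, 126 and 126 in shPRMT6, with a log2 fold change of -0.64 ± 0.0526 (SE; adjusted p = 0.00114, edgeR QL test). FOXM1, the forkhead factor of G2 and mitotic genes, had 122, 144 and 119 CPM in NC and 67.0, 60.9 and 88.0 in shPRMT6. Its log2 fold change was -0.83 ± 0.152 (SE; adjusted p = 0.0128, edgeR QL test), and the adjusted p was 0.0534 without shPRMT6 replicate 1. ITFG2 lies opposite 15.9% of the exonic bases of FOXM1.

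The size of the fall did not follow abundance closely. Across the 40 genes, the Spearman correlation between NC FPKM and log2 fold change was 0.15, given as a description over genes that share the same 6 libraries. The order of the genes by FPKM was nearly kept, with a Spearman correlation of 0.97 between NC and shPRMT6. The spread between NC libraries (SD over mean) ranged from 0.392% in FAM83D to 63.5% in GAS2L3, both of which passed the test, and from 14.0% to 41.4% in the 5 genes that did not pass. The called genes CKAP2 (14.1%) and HMMR (15.1%) lay within that second range. NC replicate 2 was the highest NC library for 21 of the 40 genes, compared with 10 and 9 for NC replicates 1 and 3. It was the lowest NC library for 13 genes, compared with 15 and 12. The part of NC replicate 2 in the results was not tested beyond leaving it out.

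For 4 pairs of related genes, chosen after their values were seen, the log2 ratio within each library was compared between groups. The CCNB2 to CCNB1 ratio was -1.13 ± 0.045 in NC and -1.52 ± 0.316 in shPRMT6 (mean ± SD, n = 3), a difference of -0.39. The difference was -0.69 for CKAP2 to CKAP2L (SD 0.168 in NC and 0.164 in shPRMT6) and -0.22 for AURKB to AURKA (SD 0.172 and 0.066). It was -0.70 for CDC25C to CDC25B (SD 0.414 in NC and 0.08 in shPRMT6). There NC replicate 2, at -2.22, lay near the shPRMT6 libraries (-2.545 to -2.394). These differences are given as a description, since the choice of pairs followed the values and a permutation test of 3 against 3 libraries cannot give a p below 0.1.

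In the RefSeq table, 33 of the 40 genes had a promoter of 250 bases before to 50 bases after the start, and motifs were searched on both strands. TTTGAA was present in 18 of 33 (54.5%), compared with 10.2% of the promoters of 11796 genes tested and 15.4% of all 27305 promoters. CCAAT was present in 66.7%, compared with 36.7% and 35.7%, and at least 2 copies in 42.4%, compared with 13.8% and 11.3%. Both motifs occurred in 51.5%, compared with 4.37% and 6.08%. The E2F motifs TTTGGCGC and TTTCGCGC occurred in only 2 of 33 promoters (6.06%), compared with 2.01% and 1.18%. The motifs were chosen after the expression values were known and none contains another, and a match describes letters only. The 40 genes were listed as mitotic genes, and the CHR element and the CCAAT box are known from genes of G2 and mitosis. Higher shares of these motifs therefore describe the list and carry no information on the knockdown. Members with and without TTTGAA had similar median log2 fold changes, -0.79 over 18 and -0.82 over 15 genes. Only exact matches near the listed start of each gene were counted. Genes without a match may thus hold a variant site or use another start, and the role of the element was not tested.

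Other genes of cell division were counted from lists outside the 40, also chosen with earlier results known. By the same call (adjusted p under 0.05, edgeR QL test), 9.06% of all genes tested fell and 9.51% rose. Of 27 other mitotic genes, 25 fell and 0 rose, with a median log2 fold change of -0.81. The smallest p values were those of CDC20, SPAG5 (-0.88), a spindle protein, and KIF20A (-0.95), a kinesin of cytokinesis. Of 20 replication and G1/S genes, 14 fell and 0 rose, with a median of -0.58 and a largest fall of -1.66. MCM7, TYMS and MCM4 had the smallest p values of that list, with log2 fold changes of -0.79, -0.83 and -0.53. Of 15 regulators of mitotic entry, which comprise inhibitors, Greatwall pathway genes and phosphatases such as CDC25A, 6 fell and 1 rose. CDKN1A, the CDK inhibitor p21, fell by 0.69 on the log2 scale, PKMYT1, an inhibitory kinase of CDK1, by 1.22, and CDC25A, a phosphatase that activates CDKs, by 0.95, while PPP2R2A, a PP2A subunit, rose by 0.82. Of 14 MuvB, DREAM and NF-Y subunits, 3 fell (TFDP1, NFYB and E2F5, with -0.76, -0.51 and -0.61) and 1 rose (NFYA, 0.28). Of 19 tubulins and interphase microtubule proteins, 5 fell and 4 rose, with a median of -0.05. TUBA1B, STMN1 and TUBA1C fell by 0.51, 0.96 and 0.34, and MAP1A, TUBB2A and MAPRE1 rose by 0.83, 0.69 and 0.32.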

How the data were processed

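RNA of 3 NC and 3 shPRMT6 U87 samples was sequenced, and samples were grouped by their labels. The study's methods call the samples independent replicates, and do not say whether they came from separate infections. The authors deposited raw read counts per gene, made with HISAT2 and HTSeq 0.13.5 on GRCh38 according to the submitters' processing notes. FPKM values, which account for transcript length and library size, were deposited beside the counts. The annotation and the use of strand in counting were not given in the sources used here.

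Counts were filtered with filterByExpr (18106 of 60612 genes kept), scaled by TMM and tested with the quasi-likelihood F-test of edgeR 4.0.16 in R 4.3.3, with Benjamini-Hochberg adjustment over all genes tested. DESeq2 1.42.0 and limma 3.58.1 (log2 of FPKM plus 1 or 0.1) were alternatives, with other scalings and filters, a replicate block and each library left out. Symbols were matched for 60401 identifiers. Gene overlaps came from GENCODE annotation on GRCh38, and promoters from RefSeq, GRCh38.p14. The lowest count of a member in any library was 218, and the libraries held 56388161 to 75887696 counts.

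The programs were run on 2 kinds of simulated counts with known changes. With 2-fold changes and the dispersion of each gene, edgeR missed a large part of the changed genes, and the blocked fit missed more. A simulation with larger changes in more abundant genes and smoothed dispersions was added after this result, without a change to the programs, and there nearly all were recovered. DESeq2 exceeded its nominal false call rate in both, so its calls are given only as an alternative. A gene that did not pass may therefore still differ.

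All 40 genes are named. Values in each library were set to be given for the member of each role group with the smallest p and that with the highest mean FPKM, and those of other members were added after their values were seen. From each other list, at most 3 genes per direction with the smallest p are named. The members and lists were chosen with earlier results of these data known.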

Additional observations from a re-analysis of the deposited data

How the results depend on the processing

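In the 16 alternatives, 28 to 37 of the 40 genes were lower and 0 were higher by the adjusted p. The share of all genes tested that were lower varied as well. It was lowest at an adjusted p under 0.01 (3.57%) and highest in limma on log2(FPKM + 1) with the FPKM filter (13.7%). Leaving out 1 library gave 29 to 34 lower genes and a median log2 fold change of -0.794 to -0.785. Over all genes tested, 1641 (9.06%) fell, but only 857 to 928 (4.52% to 4.91%) did without NC replicate 3 or any 1 shPRMT6 replicate. With log2(FPKM + 1) in limma the median was -0.736 with the FPKM filter and -0.731 without it, and 4 genes passed the threshold of the methods in both, compared with 8; adding 1 compresses the fold changes of low genes. Of 638 values of single genes, 590 kept direction and side of the threshold, 42 lost the call, 5 gained it and 1 reversed (CDC25B, whose log2 fold change was -0.239 to 0.0522 when 1 library was left out, with the value above 0 without NC replicate 2). The PRMT6 log2 fold change was -0.466 without the FPKM filter in limma (adjusted p = 0.0578), -0.879 with the replicate block (0.0803), and -0.871 at an adjusted p under 0.01 (0.0225), each no longer past the threshold, and it was -1 to -0.732 when 1 library was left out. DESeq2, which called 37 of the 40 genes lower, made more false calls than its threshold allows on simulated counts.

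The correlations of deviations between same-numbered libraries were -0.0136, -0.0534 and -0.0259. Those between differently numbered libraries ran from -0.0382 to 0.0645. Same-numbered libraries thus showed no pairing over all genes tested, and pairing limited to some genes was not tested. With the replicate block 31 of the 40 genes were lower, with a median of -0.803, and 908 of all genes tested fell.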
